A study of Mus musculus with 18 samples.

Results

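The subject is a group of 49 extracellular matrix and basement membrane genes: collagens, laminins, nidogens, heparan sulfate proteoglycans, fibronectin and fibulins, matricellular proteins, lysyl oxidases, small leucine-rich proteoglycans, matrix metalloproteinases and their inhibitors. They were chosen by name, as every probe set that the array annotation paired with 1 of these symbols alone. Of the 49 genes, 46 had such a probe set, with 102 probe sets in all, and the brightest probe set (the highest mean over all arrays) stands for each gene. A gene was tested where this probe set reached a mean signal of 100 in at least 1 group, which held for 34 members of the 10575 genes tested.

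The arrays measured RNA of cells from the lateral and medial ganglionic eminences of E15.5 C57BL/6 mouse embryos, from which the striatum develops. The cells were expanded with EGF and bFGF as neurospheres, which are floating clusters of neural progenitors and their progeny, and the spheres were then taken apart and plated as an adherent layer to differentiate, with fetal calf serum and bFGF but no EGF. The protocol, which all groups share, later withdraws bFGF. The labels describe the treatment at that change of medium, while the paper's methods start it before the withdrawal, so whether bFGF was present during treatment is not settled here. The cells were given neither agent (control), 10 ng/ml recombinant BMP2, a ligand of BMP receptors, or 50 nM trichostatin A (TSA), an inhibitor of histone deacetylases. There were 2 control, 2 BMP2 and 2 TSA arrays at 6 h and 6 control, 2 BMP2 and 4 TSA arrays at 24 h, and the study asked how both treatments act on genes of cell fate over time. No source used here states whether the arrays of a group came from separate cultures, so the p-values cover the spread between these arrays, which may be technical. In such whole cultures, fewer cells of a type and less RNA per cell cannot be told apart.

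The extracellular matrix is the protein network that cells secrete around themselves. Basement membranes are its sheet-like form, in which a laminin network and a type IV collagen network are joined by nidogens and by the heparan sulfate proteoglycans perlecan and agrin. In the embryonic brain, matrix of the ventricular zone and of the pial and vascular basement membranes surrounds the progenitors, and tenascin-C is a known component of neural stem cell niches.

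Values are linear array signals after quantile normalization. A change is given as a log2 fold change of signal + 32 with its standard error (±) from 1 limma fit over all arrays, and "rose" or "fell" stands for an adjusted p under 0.05 (Benjamini-Hochberg over all tested probe sets). Because 32 was added, the fold changes of dim genes are understated. Signals of different genes are signals of different probe sets and were not compared.

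The 18 arrays had deposited median signals of 35.2 to 41.4. The 24 h controls fell into 2 array clusters: controls 5 and 6, together with both BMP2 arrays of 24 h, had Xist signals of 2193 to 4447 on its brightest probe set, against 326 to 1884 on the other 14 arrays. What this split is was not stated, and a fit with the array cluster as a further term is given where it ends a call. In the marker lists for neural cells, all 9 astrocyte, 9 neuronal, 6 progenitor and 8 oligodendrocyte lineage genes reached 100 in some group. Of the markers of other cell types, 10 of 10 microglial, 8 of 10 endothelial (Pecam1, Cdh5 and Cldn5 among them), 8 of 10 meningeal (Lum and Foxc1 among them) and 4 of 8 mural genes stayed under 100 in every group. The others reached 100 in some group: Kdr and Egfl7 (endothelial), Islr and Igf2 (meningeal), and Pdgfrb, Acta2, Tagln and Notch3 (mural). Group means were 334 to 486 for Acta2, 375 to 1034 for Notch3, 142 to 194 for Egfl7 and 130 to 606 for Islr.

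At 24 h most tested matrix genes were higher with TSA. Of the 34 tested members 25 were called, 23 upregulated and 2 downregulated, where 38.8% of all tested genes were called, 18.7% higher and 20.1% lower. The median log2 fold change was 0.73 over the members and -0.02 over all tested genes. BMP2 at 24 h upregulated 11 members and downregulated 1, beside 17.7% of all genes called, 9.94% higher and 7.76% lower, and the medians were 0.26 and 0.03. At 6 h BMP2 upregulated 2 members and downregulated 0 (1.82% of all genes called, 1.16% higher and 0.652% lower; 3 members had an unadjusted p under 0.05 in limma), and TSA upregulated 2 and downregulated 3 (26.4% of all genes called, 14.5% higher and 11.9% lower). The TSA count of 5 at 6 h was 11 with the replicate number as a block (45% of all genes called) and 10 with only the arrays of both groups in the fit (47.5%).

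These counts are not counts over all members. Of the 34, 20 reached a mean of 100 in a control group and 14 only in a treated group, and those 14 had to differ between groups to be tested. Among members with a control mean of at least 100, a count made after seeing the data, TSA at 24 h upregulated 8 and downregulated 2 of 19 (38% of all such genes called) and BMP2 at 24 h upregulated 7 and downregulated 1 of 19 (16.8%). In the same way TSA at 6 h downregulated 3 and upregulated 0 of 18 (26.6%), and BMP2 at 6 h upregulated 1 of 18 (1.5%). Without any filter, over all 46 members with a probe set, TSA at 24 h upregulated 24 and downregulated 3 (22.3% of all genes called), and BMP2 at 24 h upregulated 12 and downregulated 1 (10.4%). The medians above depend on the filter too. Over members with a control mean of at least 100, the median with TSA at 24 h was 0.19 (-0.05 over all such genes). Over all 46 members without a filter it was 0.5 (-0.01 over all genes). With BMP2 at 24 h these medians were 0.29 (0.02) and 0.16 (0.02). The counts by role given further on have the same limit, so the members tested only through a treated group are named beside them.

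**Figure D1:**
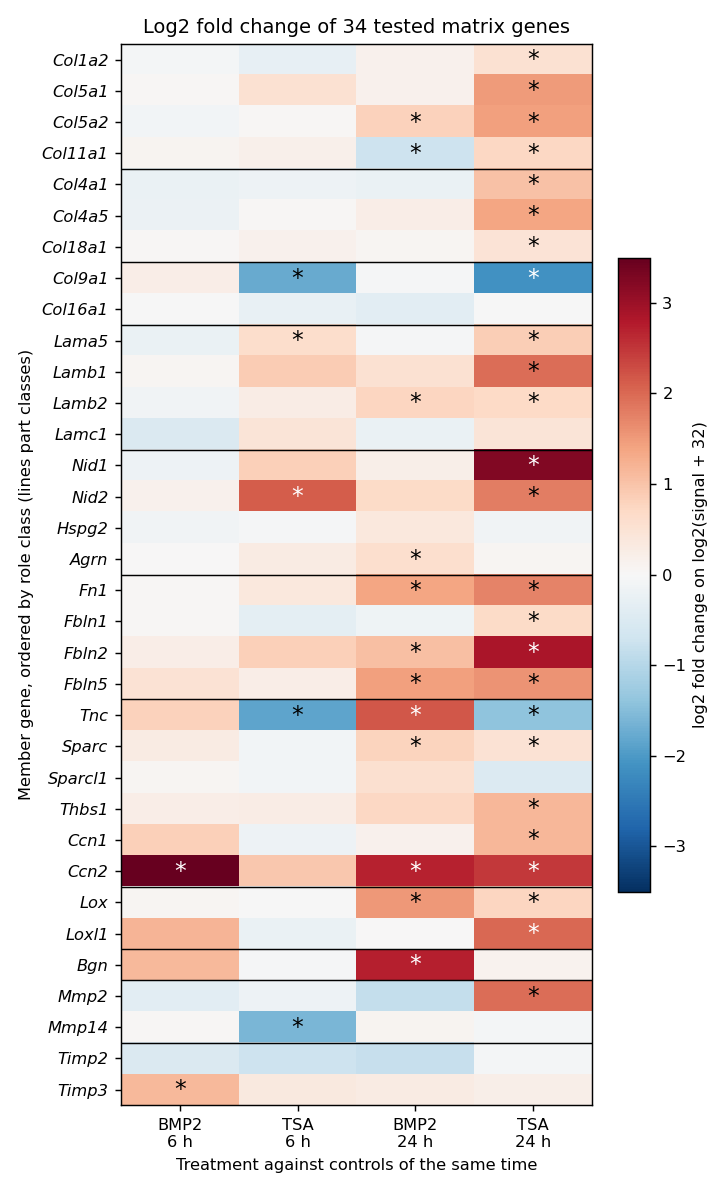
Log2 fold change (colour, on signal + 32) of the 34 tested members in rows, ordered by role class, for BMP2 and TSA against the controls of the same time in columns. Asterisks mark an adjusted p under 0.05; the TSA 24 h column holds 23 marked rises and 2 marked falls, Col9a1 and Tnc.

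Promoter sequences are shown for the called members with a window in the RefSeq table (build GRCm38.p6) that changed most at 24 h: the largest rises with BMP2 (Bgn, Tnc) and with TSA (Nid1, Fbln2), and the largest fall with BMP2 (Col11a1) and with TSA (Col9a1). Ccn2, which also rose with BMP2, is named only. Each is the 250 bases before the annotated start, 5′ to 3′ on the strand of the gene, in lower case with every match to a GC box (GGGCGG), the Smad-binding motifs GGCGCC and GTCTAGAC or a TATA box (TATAAA), on either strand, in capitals. They lie at chrX:73483351-73483600 (plus strand), chr4:64047016-64047265 (minus strand), chr13:13437352-13437601 (plus strand), chr6:91212514-91212763 (plus strand), chr3:114030290-114030539 (plus strand) and chr1:24177360-24177609 (plus strand).
Bgn: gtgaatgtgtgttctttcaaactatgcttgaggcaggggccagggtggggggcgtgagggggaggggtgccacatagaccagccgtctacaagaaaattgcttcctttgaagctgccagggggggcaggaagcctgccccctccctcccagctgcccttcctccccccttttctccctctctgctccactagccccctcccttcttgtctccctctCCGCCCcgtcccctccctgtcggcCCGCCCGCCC
Tnc: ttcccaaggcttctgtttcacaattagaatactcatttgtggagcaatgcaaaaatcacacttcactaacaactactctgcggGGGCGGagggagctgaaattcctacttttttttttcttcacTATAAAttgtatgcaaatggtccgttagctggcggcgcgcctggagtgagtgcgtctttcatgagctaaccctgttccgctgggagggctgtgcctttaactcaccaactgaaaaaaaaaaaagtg
Nid1: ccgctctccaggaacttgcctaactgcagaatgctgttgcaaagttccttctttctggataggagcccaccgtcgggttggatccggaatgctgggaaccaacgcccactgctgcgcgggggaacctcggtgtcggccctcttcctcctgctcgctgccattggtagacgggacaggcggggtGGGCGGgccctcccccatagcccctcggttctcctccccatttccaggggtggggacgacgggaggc
Fbln2: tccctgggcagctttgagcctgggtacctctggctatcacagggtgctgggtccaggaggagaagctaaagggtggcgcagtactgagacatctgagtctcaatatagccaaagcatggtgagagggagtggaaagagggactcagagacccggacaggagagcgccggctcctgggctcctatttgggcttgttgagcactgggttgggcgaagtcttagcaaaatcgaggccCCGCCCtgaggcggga
Col11a1: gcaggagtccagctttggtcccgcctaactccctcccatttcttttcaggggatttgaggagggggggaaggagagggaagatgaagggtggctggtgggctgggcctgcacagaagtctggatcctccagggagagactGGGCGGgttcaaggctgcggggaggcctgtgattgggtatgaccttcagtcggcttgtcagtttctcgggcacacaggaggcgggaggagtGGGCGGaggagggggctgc
Col9a1: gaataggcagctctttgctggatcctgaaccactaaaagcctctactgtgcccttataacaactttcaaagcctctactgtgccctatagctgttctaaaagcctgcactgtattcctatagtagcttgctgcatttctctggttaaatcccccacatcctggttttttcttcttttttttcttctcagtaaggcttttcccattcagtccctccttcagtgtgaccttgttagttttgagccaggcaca
Bgn has 3 GC boxes, of which 2 overlap, Col11a1 has 2, Nid1 and Fbln2 have 1 each, Tnc has 1 GC box and 1 TATA box, and Col9a1 has no match. A GC box is found in 32.7% of the 32851 windows of the table, GGCGCC in 9.59%, TATAAA in 12.4% and GTCTAGAC in 0.167%. Of the 49 members 35 are in the table, with 47 windows, of which 31 hold a GC box, 12 GGCGCC, 7 TATAAA and 0 GTCTAGAC. These are matches of letters and say nothing of factors bound in the cultures.

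Among the fibrillar collagens, which assemble into the fibres of connective tissue, 4 of 6 members were tested and rose with TSA at 24 h, of which Col1a2 and Col5a1 were tested only through a treated group. Col5a1 and Col5a2 encode chains of type V collagen, which starts the growth of collagen fibrils. The Col5a1 signal at 24 h was 244, 161, 148 and 205 on the TSA arrays and 60.2 and 50.7 on the BMP2 arrays, and the controls had a lowest of 32.6, a median of 47.4 and a highest of 60.8. Every TSA array lay above every control and BMP2 array. It rose with TSA by 1.49 ± 0.15 (adjusted p = 2.56e-06), and BMP2 gave 0.16 ± 0.19 (adjusted p = 0.589). The Col5a2 signal was 835, 622, 554 and 560.4 with TSA, 324 and 485 with BMP2, and a lowest of 159, a median of 208 and a highest of 297 in the controls. Both treatments were above all controls. The rises were 1.44 ± 0.16 (adjusted p = 8.72e-06) with TSA and 0.80 ± 0.21 (adjusted p = 0.0145) with BMP2 (0.69, adjusted p = 0.111, with the cluster as a term). At 6 h the Col5a2 signal was 145 and 109.7 with TSA and 122 and 123 in controls, which overlap.

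Col11a1, a chain of type XI collagen that is best known from cartilage, moved in opposite directions with the 2 treatments. Its 24 h signals were 349 and 322 with BMP2, 1262, 827, 869 and 971 with TSA and a lowest of 528, a median of 568 and a highest of 629 in the controls. Both BMP2 arrays were below and all 4 TSA arrays above every control. It fell with BMP2 by 0.72 ± 0.16 on the log2 scale (adjusted p = 0.00441), rose with TSA by 0.73 ± 0.12 (adjusted p = 0.000315), and TSA exceeded BMP2 by 1.45 ± 0.17 (adjusted p = 1.2e-05). Col1a2, a chain of type I collagen, was dim and rose with TSA by 0.54 ± 0.16 (adjusted p = 0.0137), with TSA arrays of 90.5 and 97.3 inside the control range, which reached 103. Col1a1 and Col3a1 stayed under 100 in every group and were not tested.

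Type IV collagen is the collagen of basement membranes, and 3 of 4 basement membrane collagens were tested and rose with TSA at 24 h, of which Col4a1 and Col18a1 were tested only through a treated group. With BMP2 0 of the 3 were called. Col4a5 was bright, with 2137, 2172, 1973 and 1892 on the TSA arrays of 24 h, 1090 and 730.0 with BMP2, and a lowest of 459, a median of 743 and a highest of 1122 in controls. The TSA arrays lay far above the other groups, and the BMP2 arrays lay among the controls. The rise was 1.39 ± 0.19 (adjusted p = 3.65e-05) with TSA, against 0.23 ± 0.23 (adjusted p = 0.535) with BMP2. Col4a1 was dim, with 159, 156, 81.9 and 109.9 with TSA, 44.8 and 24.3 with BMP2, and a lowest of 28.0, a median of 41.0 and a highest of 81.7 in controls. The lowest TSA array, at 81.9, was barely above the highest control, at 81.7. Col4a1 rose with TSA by 1.01 ± 0.19 (adjusted p = 0.000791) and gave -0.22 ± 0.24 (adjusted p = 0.566) with BMP2. Col18a1, the core protein of a basement membrane proteoglycan, rose with TSA by 0.48 ± 0.16 (adjusted p = 0.0257) (0.43, adjusted p = 0.0655, with the cluster as a term), and its TSA arrays overlapped the controls. Col4a2 stayed under 100 in every group and was not tested.

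Col9a1, a chain of type IX collagen that sits on the surface of fibrils, was the member that fell furthest with TSA at 24 h. At 6 h the TSA arrays had 173 and 137, the BMP2 arrays 617 and 807, and the controls 588 and 612. At 24 h the values were 65.5, 140.3, 87.4 and 126 with TSA, 686 and 416 with BMP2, and a lowest of 289.8, a median of 588 and a highest of 732 in controls. The TSA arrays were below all controls at both times, and the BMP2 arrays of 24 h lay within the control range. Col9a1 changed with TSA by -1.77 ± 0.35 (adjusted p = 0.00212) at 6 h and -2.12 ± 0.23 (adjusted p = 4.41e-06) at 24 h. The difference between the times was -0.36 ± 0.42 (adjusted p = 0.636), which was not called. Col16a1, a collagen found beside fibrils, varied from 36.9 to 463 on the TSA arrays of 24 h and was not called in any comparison. Col6a1 and Col6a2 were not tested.

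Laminins are trimers of an alpha, a beta and a gamma chain, and of 4 tested chains 3 rose with TSA at 24 h and 1 with BMP2. Lama5 and Lamb1 were tested only through a treated group. Lamb1, a beta chain, had signals of 253, 87.4, 87.0 and 249.8 with TSA at 24 h, 38.8 and 35.0 with BMP2, and a lowest of 2.40, a median of 15.9 and a highest of 28.9 in controls. All TSA arrays were above all other arrays of that time, and they formed a high and a low pair. The rise was 1.95 ± 0.25 (adjusted p = 3.08e-05) with TSA, and BMP2 gave 0.53 ± 0.32 (adjusted p = 0.272). Lama5, an alpha chain, was the laminin called at both times, with 0.61 ± 0.21 (adjusted p = 0.0472) at 6 h and 0.87 ± 0.14 (adjusted p = 0.000157) at 24 h with TSA. Its 6 h values were 139 and 126 with TSA and 81.9 and 69.8 in controls, without overlap. The 6 h call of Lama5 ended when any 1 array of these groups was left out, and also in the fit without a filter. Lamb2 rose with both treatments at 24 h, by 0.74 ± 0.19 (adjusted p = 0.0131) with BMP2 and 0.70 ± 0.15 (adjusted p = 0.00201) with TSA. Controls 5 and 6 had 155 and 169.8, above the 94.7 to 143 of controls 1 to 4, and the BMP2 call ended (0.49, adjusted p = 0.173, with the cluster as a term). Lamc1, the gamma chain, gave 0.46 ± 0.19 (adjusted p = 0.0633) with TSA at 24 h and was not called against controls. It was higher with TSA than with BMP2 at both times, by 0.96 ± 0.29 (adjusted p = 0.0240) at 6 h and 0.70 ± 0.25 (adjusted p = 0.0372) at 24 h (1.03, adjusted p = 0.0581, with the cluster as a term). Lama4 was not tested.

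The nidogens, which bridge the laminin and type IV collagen networks, included the largest rise of all tested members with TSA, and both were tested only through a treated group. Nid1 at 24 h had signals of 934, 427, 833 and 904 with TSA, 87.5 and 42.6 with BMP2, and a lowest of 13.8, a median of 52.8 and a highest of 116 in controls. The TSA arrays stood well apart from all others, and the BMP2 arrays lay within the control range. The rise with TSA was 3.24 ± 0.28 (adjusted p = 6.51e-07), 9.46-fold on this scale. At 6 h the values were 68.7 and 78.6 with TSA and 28.8 and 25.0 in controls, a change of 0.84 ± 0.43 (adjusted p = 0.183). Nid2 was already high with TSA at 6 h, at 165 and 187 against 11.5 and 20.6 in controls. At 24 h its TSA arrays had 139, 152, 328 and 247, the BMP2 arrays 89.3 and 67.3, and the controls a lowest of 20.7, a median of 38.5 and a highest of 57.7. Both sets of TSA arrays were above every array of the other groups of their time. The Nid2 rise was 2.12 ± 0.33 (adjusted p = 0.000417) at 6 h and 1.79 ± 0.21 (adjusted p = 1.41e-05) at 24 h.

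Agrin and perlecan, the proteoglycans that link these networks, were not called with TSA at 24 h against all controls. Agrn (agrin) was bright in all groups and at 24 h had 2956 and 2912 with BMP2, 2226, 2032, 1782 and 2184 with TSA, and a lowest of 1498, a median of 1859 and a highest of 2558 in controls. Both BMP2 arrays were above all controls, while the TSA arrays were among them. It rose with BMP2 by 0.58 ± 0.16 (adjusted p = 0.0228) and gave 0.07 ± 0.13 (adjusted p = 0.699) with TSA. Controls 5 and 6 had 2479 and 2558, above the 1498 to 1866 of controls 1 to 4, and with the array cluster as a term the BMP2 change was 0.22 ± 0.12 (adjusted p = 0.344), which is no longer a call. The direction with TSA also depended on the controls, with -0.29 (adjusted p = 0.0282) against controls 5 and 6 alone and 0.25 (adjusted p = 0.0377) against controls 1 to 4 alone. Hspg2 (perlecan) was not called against all controls at any time, with -0.13 ± 0.15 (adjusted p = 0.518) with TSA at 24 h. With BMP2 at 24 h the result depended on the controls. It was 0.38 (adjusted p = 0.18) against all, 0.49 (adjusted p = 0.00528) against controls 1 to 4 alone and 0.16 (adjusted p = 0.798) against controls 5 and 6 alone.

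**Figure D2:**
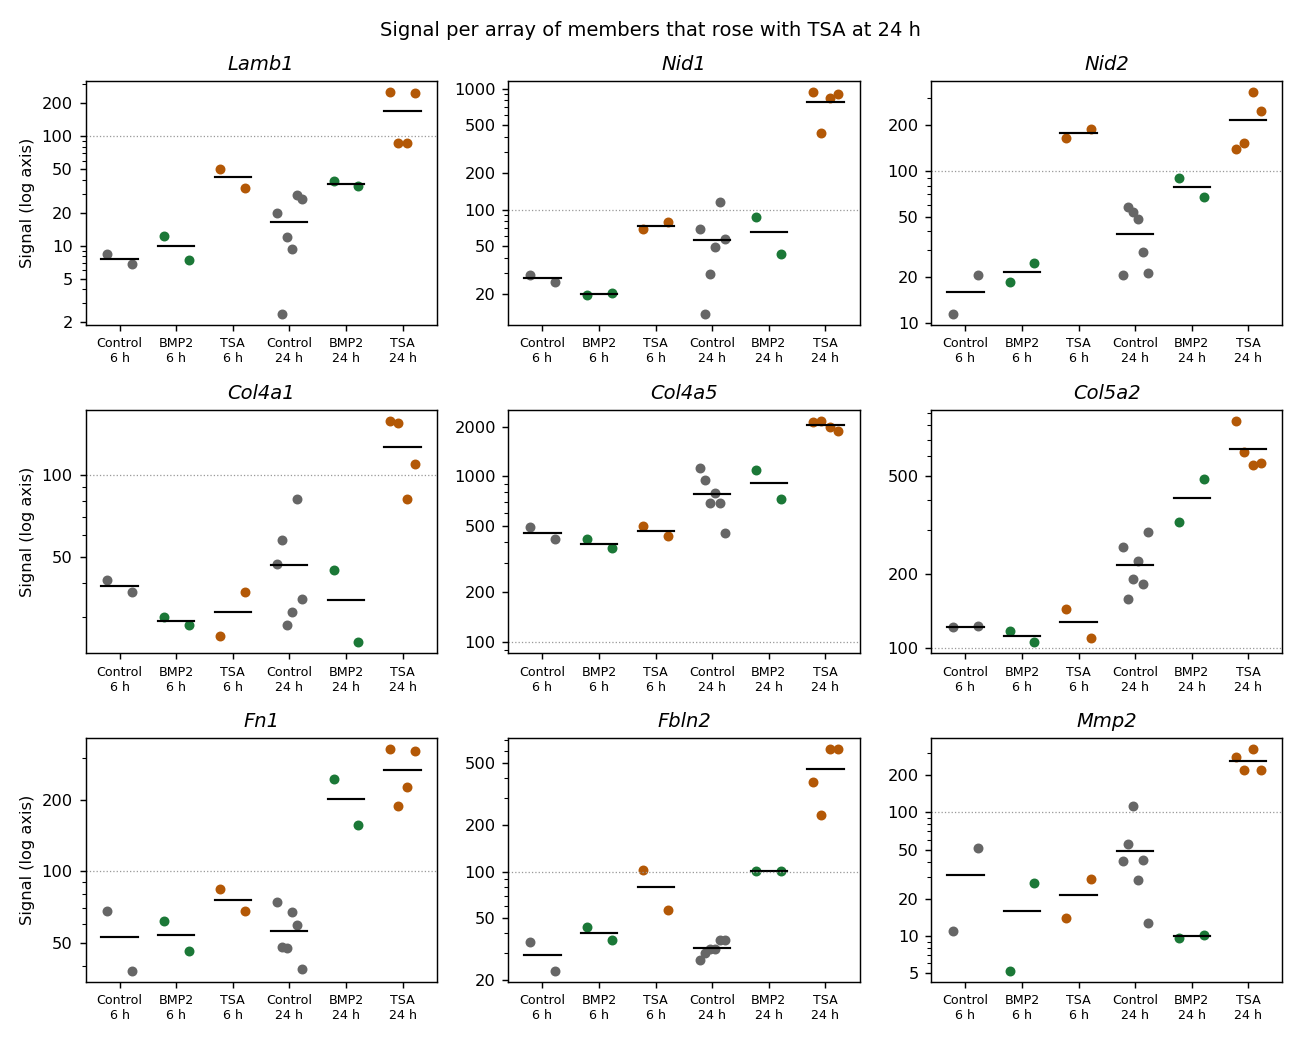
Signal (log axis) of 9 members that rose with TSA at 24 h, 1 point per array in order of replicate number within each group, with a black bar at the group mean and a dotted line at the signal of 100 used as filter. The 4 TSA arrays of 24 h (orange) are above all 24 h controls (grey) in each panel. For Lamb1, Nid2, Col5a2, Fn1 and Fbln2 the BMP2 arrays of 24 h (green) are above them as well.

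Of fibronectin and the fibulins, 4 of 6 members were tested, and these rose with TSA at 24 h and 3 of them with BMP2, but Fn1, Fbln2 and Fbln5 were tested only through a treated group. Fn1 encodes fibronectin, a ligand of integrins on which other matrix proteins assemble. Its signal was 326, 187, 226 and 320.3 with TSA, 245 and 156 with BMP2, and a lowest of 38.8, a median of 53.8 and a highest of 74.1 in controls. All treated arrays were above all controls. Fn1 rose by 1.74 ± 0.18 (adjusted p = 3.03e-06) with TSA and 1.39 ± 0.22 (adjusted p = 0.000435) with BMP2, and TSA minus BMP2 gave 0.35 ± 0.24 (adjusted p = 0.253), which was not called. At 6 h neither change was called, with 0.36 ± 0.27 (adjusted p = 0.382) for TSA and 0.03 ± 0.27 (adjusted p = 1.00) for BMP2.

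Fbln2, a fibulin that binds fibronectin and basement membrane proteins, had 377, 233, 612 and 616 with TSA at 24 h, 101 and 101 with BMP2, and a lowest of 27.1, a median of 31.7 and a highest of 36.3 in controls. The order was TSA above BMP2 above controls, with no overlap. The rises were 2.85 ± 0.21 (adjusted p = 1.62e-07) with TSA and 1.06 ± 0.26 (adjusted p = 0.0115) with BMP2 (0.97, adjusted p = 0.0802, with the cluster as a term), and TSA exceeded BMP2 by 1.79 ± 0.28 (adjusted p = 0.000197). Fbln5, a fibulin of elastic fibres, had 60.1, 195, 165 and 123 with TSA, 147 and 85.1 with BMP2, and a lowest of 9.02, a median of 22.8 and a highest of 35.4 in controls. Both treatments were above all controls and overlapped each other. It rose by 1.57 ± 0.23 (adjusted p = 8.85e-05) with TSA and 1.43 ± 0.29 (adjusted p = 0.00284) with BMP2. Fbln1 rose with TSA by 0.66 ± 0.20 (adjusted p = 0.0167) and gave -0.15 ± 0.25 (adjusted p = 0.735) with BMP2. Matn4 stayed under 100 in every group, and Efemp2 had no probe set paired with it alone.

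Matricellular proteins are secreted regulators of cell adhesion and signalling, and of 6 tested members 4 rose and 1 fell with TSA at 24 h and 3 rose with BMP2. Ccn2 (CTGF) was, with Timp3, 1 of the 2 members that rose with BMP2 at 6 h. At 6 h it had 591 and 933 with BMP2, 31.4 and 138 with TSA and 12.0 and 33.7 in controls. Both BMP2 arrays were far above the rest. The rise was 3.85 ± 0.82 (adjusted p = 0.0248), against 0.95 ± 0.82 (adjusted p = 0.458) for TSA. Leaving out any 1 of the 4 arrays of this comparison ended the call, with an estimate of 3.54 to 4.17. At 24 h the signal was 2099 and 550.4 with BMP2, 1215, 574, 1317 and 851 with TSA, and a lowest of 10.8, a median of 177 and a highest of 384 in controls. All treated arrays were above all controls, and both treatments overlapped. Ccn2 rose by 2.68 ± 0.67 (adjusted p = 0.0120) with BMP2 and 2.49 ± 0.53 (adjusted p = 0.00196) with TSA. Without BMP2 24 h replicate 1 the BMP2 change was 1.75 (adjusted p = 0.283). Ccn1 (CYR61), of the same family, had 1282, 776, 1723 and 1032 with TSA at 24 h, 843 and 373 with BMP2, and a lowest of 219, a median of 621 and a highest of 747 in controls. The TSA arrays were all above the controls. Its rise with TSA was 1.16 ± 0.34 (adjusted p = 0.0143), and without TSA 24 h replicate 3 it was 0.97 (adjusted p = 0.0551). Against controls 1 to 4 alone it was 0.76 (adjusted p = 0.0529), no longer a call, and with the cluster as a term 0.76 (adjusted p = 0.0498).

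Tnc, which encodes tenascin-C, rose with BMP2 and fell with TSA. Its signals at 6 h were 445 and 201 with TSA, 2363 and 1780 with BMP2, and 1725 and 784 in controls. At 24 h they were 238, 288, 295 and 426 with TSA, 3602 and 4535 with BMP2, and a lowest of 377, a median of 843 and a highest of 1632 in controls. BMP2 arrays were above all controls at both times, TSA arrays were below them at 6 h, and at 24 h the highest TSA array overlapped the lowest control. The TSA change was -1.84 ± 0.54 (adjusted p = 0.0222) at 6 h and -1.41 ± 0.35 (adjusted p = 0.00512) at 24 h, the BMP2 change was 0.80 ± 0.54 (adjusted p = 1.00) at 6 h and 2.18 ± 0.44 (adjusted p = 0.00282) at 24 h, and at 24 h TSA minus BMP2 was -3.59 ± 0.47 (adjusted p = 4.02e-05). At 6 h the TSA call ended without control replicate 1 (-1.29, adjusted p = 0.22) and without TSA 6 h replicate 2 (-1.33, adjusted p = 0.224). Controls 5 and 6 had 1632 and 1498, above the 377 to 852 of controls 1 to 4, and with the cluster as a term the BMP2 change at 24 h was 1.35 ± 0.41 (adjusted p = 0.0504).

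Of the other matricellular members, Sparc, a collagen-binding protein, rose at 24 h with BMP2 by 0.77 ± 0.18 (adjusted p = 0.00685) (0.64, adjusted p = 0.0762, with the cluster as a term) and with TSA by 0.51 ± 0.14 (adjusted p = 0.00971). A dim second probe set of Sparc, with a mean signal of 97.2, fell with BMP2 by 0.90 ± 0.22 (adjusted p = 0.00957), and a bright one gave 0.49 ± 0.18 (adjusted p = 0.0787). It was the 1 exception: for BMP2 at 24 h, 6 of 7 other probe sets of called members had the sign of the brightest, and for TSA at 24 h 9 of 9. Thbs1, thrombospondin-1, had 388, 74.0, 144 and 162 with TSA at 24 h and a lowest of 35.0, a median of 53.4 and a highest of 94.7 in controls. These groups overlapped, and the rise was 1.17 ± 0.32 (adjusted p = 0.00878), for a gene tested only through a treated group. Sparcl1, a relative of Sparc made by astrocytes, was not called against controls but was lower with TSA than with BMP2 at 24 h, by -1.05 ± 0.30 (adjusted p = 0.0139) (-1.10, adjusted p = 0.119, with the cluster as a term). Postn, Thbs2 and Ccn4 were not tested, and Spp1 had no probe set paired with it alone.

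The lysyl oxidases cross-link collagen and elastin. Lox at 24 h had 148 and 78.4 with BMP2, 61.9, 31.2, 28.2 and 97.2 with TSA, and a lowest of 9.80, a median of 17.3 and a highest of 26.7 in controls. All treated arrays were above all controls, though only 1 of them exceeded 100. Lox rose by 1.52 ± 0.26 (adjusted p = 0.000789) with BMP2 and 0.74 ± 0.21 (adjusted p = 0.0109) with TSA, and it was tested only through a treated group. Loxl1 at 6 h had 848 and 830.4 with BMP2, 286 and 296 with TSA and 357 and 344 in controls. The 2 BMP2 arrays were higher than all others, but the change of 1.19 ± 0.47 (adjusted p = 0.517) was not called. At 24 h it had 733, 972, 1085 and 782 with TSA, 273 and 139 with BMP2, and a lowest of 51.6, a median of 246 and a highest of 314 in controls. Every TSA array was above every other, and Loxl1 rose with TSA by 2.01 ± 0.31 (adjusted p = 0.000126).

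Bgn encodes biglycan, a small leucine-rich proteoglycan that binds collagen and growth factors of the TGF-beta family. At 24 h it had 1198 and 779 with BMP2, 20.9, 303, 213 and 141 with TSA, and a lowest of 24.2, a median of 159 and a highest of 249 in controls. The BMP2 arrays stood far above both other groups, and TSA and control arrays overlapped widely, each with 1 array near 20. Bgn rose with BMP2 by 2.71 ± 0.60 (adjusted p = 0.00543), gave 0.12 ± 0.48 (adjusted p = 0.864) with TSA, and TSA minus BMP2 was -2.59 ± 0.64 (adjusted p = 0.00536). At 6 h the BMP2 arrays had 383 and 325 and the controls 112 and 179.8, apart but not called (1.14 ± 0.74 (adjusted p = 1.00)). Without BMP2 24 h replicate 1 the 24 h change was 2.41 (adjusted p = 0.105). Dcn (decorin) was not tested.

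Matrix metalloproteinases degrade matrix proteins, and TIMPs inhibit them. Mmp2 (gelatinase A) had 279.5, 218, 324 and 219.7 with TSA at 24 h, 9.69 and 10.3 with BMP2, and a lowest of 12.7, a median of 40.6 and a highest of 112 in controls. The TSA arrays were above all others and the BMP2 arrays below all controls. It rose with TSA by 1.95 ± 0.27 (adjusted p = 6e-05), and BMP2 gave -0.84 ± 0.34 (adjusted p = 0.109). It, too, was tested only through a treated group. Mmp14, the membrane-bound protease that activates Mmp2, had 348 and 402 with TSA at 6 h, 1083 and 1409 with BMP2 and 1269 and 1128 in controls. At 24 h the TSA arrays, at 1089, 1107, 1022 and 983, lay among the controls, with a lowest of 869, a median of 1175 and a highest of 1258. Mmp14 thus fell with TSA at 6 h alone of the 2 times (-1.60 ± 0.20 (adjusted p = 7.92e-05)), against -0.06 ± 0.13 (adjusted p = 0.726) at 24 h, a difference between times of 1.53 ± 0.23 (adjusted p = 0.00172). Timp3, an inhibitor held in the matrix, had 2740 and 2828 with BMP2 at 6 h, 1430 and 1820 with TSA and 1269 and 1249 in controls. The BMP2 arrays were apart from the rest. It rose with BMP2 by 1.13 ± 0.23 (adjusted p = 0.0152) at 6 h, a call that ended when any 1 array was left out (1.10 to 1.15), and gave 0.29 ± 0.18 (adjusted p = 0.300) at 24 h. Timp2 was bright and was not called against all controls, with 651 and 1597 on the BMP2 arrays of 24 h and a lowest of 969, a median of 1985 and a highest of 2304 in controls. Against controls 1 to 4 alone, BMP2 at 24 h gave -1.03 (adjusted p = 0.0461) for Timp2 and -1.03 (adjusted p = 0.0267) for Mmp2. Against controls 5 and 6 alone it gave -0.38 (adjusted p = 0.766) and -0.44 (adjusted p = 0.552). Timp1 was not tested, and Mmp15 had no probe set paired with it alone.

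**Figure D3:**
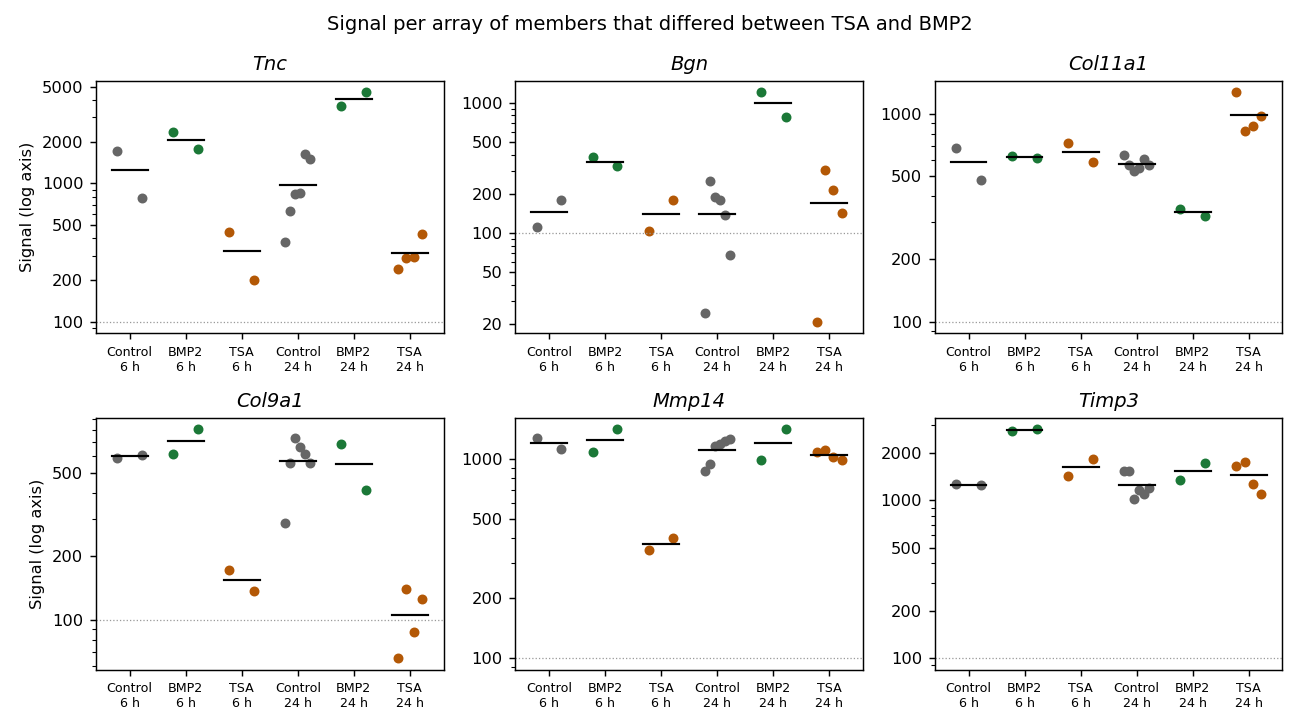
Signal (log axis) of 6 members that differed between TSA and BMP2 at 6 h or 24 h, 1 point per array, black bars at group means, dotted line at 100. Tnc and Bgn are highest with BMP2 at 24 h, Col11a1 and Col9a1 lie apart in opposite directions with TSA, Mmp14 drops to 348 and 402 with TSA at 6 h, and Timp3 reaches 2740 and 2828 with BMP2 at 6 h.

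Set directly against each other at 24 h, TSA and BMP2 differed in 20 of the 34 members, 14 higher with TSA and 6 lower, where 38.4% of all tested genes were called, 17.3% higher and 21.2% lower. The 14 were Col5a1, Col5a2, Col11a1, Col4a1, Col4a5, Lama5, Lamb1, Lamc1, Nid1, Nid2, Fbln1, Fbln2, Loxl1 and Mmp2, and the 6 were Col9a1, Agrn, Tnc, Sparcl1, Lox and Bgn. Of the 14, Col5a1, Col4a1, Lama5, Lamb1, Nid1, Nid2, Fbln2 and Mmp2 were tested only through a treated group, as was Lox of the 6. The filter thus favoured differences in these genes, and the counts of this paragraph share that limit. With the array cluster as a term, 10 members were called (14.2% of all genes): Col5a1, Col11a1, Col4a1, Lamb1, Nid1, Fbln2 and Mmp2 higher with TSA and Col9a1, Tnc and Bgn lower. The calls of the other 10 ended, with Loxl1 moving from 2.00 to 0.79 ± 0.39 (adjusted p = 0.223) and Agrn from -0.51 to 0.04 ± 0.15 (adjusted p = 0.912). All TSA arrays lie in 1 cluster and both BMP2 arrays in the other, so this comparison crosses the clusters. The largest differences were Nid1 at 3.04 ± 0.37 (adjusted p = 2.52e-05) and Mmp2 at 2.78 ± 0.37 (adjusted p = 4.35e-05) upward and Tnc downward. At 6 h 9 members differed, 3 higher with TSA (Lama5, Lamc1, Nid2) and 6 lower (Col9a1, Tnc, Ccn2, Loxl1, Mmp14, Timp3), where 28% of all genes were called, 15.5% higher and 12.5% lower.

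The change of the TSA effect from 6 h to 24 h was tested as an interaction. It was called for 10 of 34 members, all with a more positive effect at 24 h (11.6% of all tested genes were called). Apart from Mmp14 these were Col5a1, Col5a2, Col4a1, Col4a5, Nid1, Fn1, Fbln2, Loxl1 and Mmp2, which were not called with TSA at 6 h and rose at 24 h. Of these, Col5a1, Col4a1, Nid1, Fn1, Fbln2 and Mmp2 were tested only through a treated group. Their highest group mean was with TSA at 24 h, so the filter favoured a more positive effect at that time. The share over all genes was not split by direction. The largest was Nid1, with 2.40 ± 0.51 (adjusted p = 0.0105), and Nid2, which rose at both times, gave -0.33 ± 0.40 (adjusted p = 0.645). The count rests on the 2 arrays of each 6 h group: it was 1 without TSA 6 h replicate 2, 3 without TSA 6 h replicate 1, 4 without control 6 h replicate 1 and 3 without control 6 h replicate 2. With the replicate number as a block it was 16 (29.2% of all genes). For BMP2 the same test in limma called 0 members (0.794% of all genes), with an unadjusted p under 0.05 for 7, but 11 with the replicate block (19.1%) and 4 with controls 1 to 4 as the only 24 h controls (6.32%). BMP2 and control arrays of 24 h with equal replicate numbers did not correlate as pairs (-0.13 to 0). The data thus give no ground for the block in that group. The controls of 24 h and 6 h differed in 0 members (4.38% of all genes), with an unadjusted p under 0.05 for 5.

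**Figure D4:**
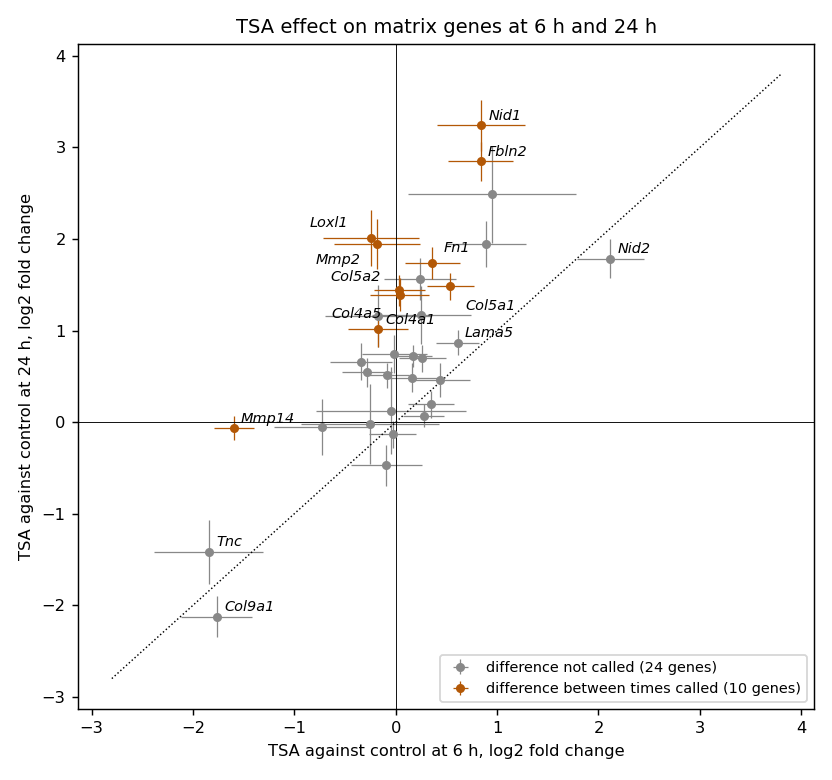
Log2 fold change of the 34 tested members with TSA against controls at 6 h (horizontal axis) and at 24 h (vertical axis), with standard errors as bars and the line of equal effects dotted. The 10 members whose effect differed between the times (orange) all lie above the line, Nid1 highest at 3.24, while Nid2, Col9a1 and Tnc lie close to it.

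The BMP2 comparison at 24 h depends on which controls are used. Between controls 1 to 4 and controls 5 and 6, 12 of the 34 members did not overlap, 7 higher and 5 lower in 5 and 6, where 38.9% of all tested genes did not overlap, 23.9% higher and 15% lower. Among them were Ccn2 (149 to 384 in controls 1 to 4, 10.8 and 94.6 in 5 and 6), Ccn1 (599.7 to 747, against 219 and 345) and Loxl1 (241 to 314, against 51.6 and 168). With the array cluster as a term, 6 members were called in place of 12 (11.1% of all genes): Col11a1 at -0.75 ± 0.19 (adjusted p = 0.0193), Fn1 at 1.50 ± 0.27 (adjusted p = 0.00192), Fbln5 at 1.69 ± 0.34 (adjusted p = 0.00451), Ccn2 at 3.92 ± 0.64 (adjusted p = 0.000899), Lox at 1.39 ± 0.32 (adjusted p = 0.0104) and Bgn at 2.94 ± 0.75 (adjusted p = 0.0204). The calls of Col5a2, Lamb2, Agrn, Fbln2, Tnc and Sparc ended. Leaving out BMP2 24 h replicate 1 gave 5 calls, and leaving out BMP2 24 h replicate 2 gave 7. Cluster and treatment are in part confounded, since both BMP2 arrays lie in 1 cluster and all TSA arrays in the other.

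**Figure D5:**
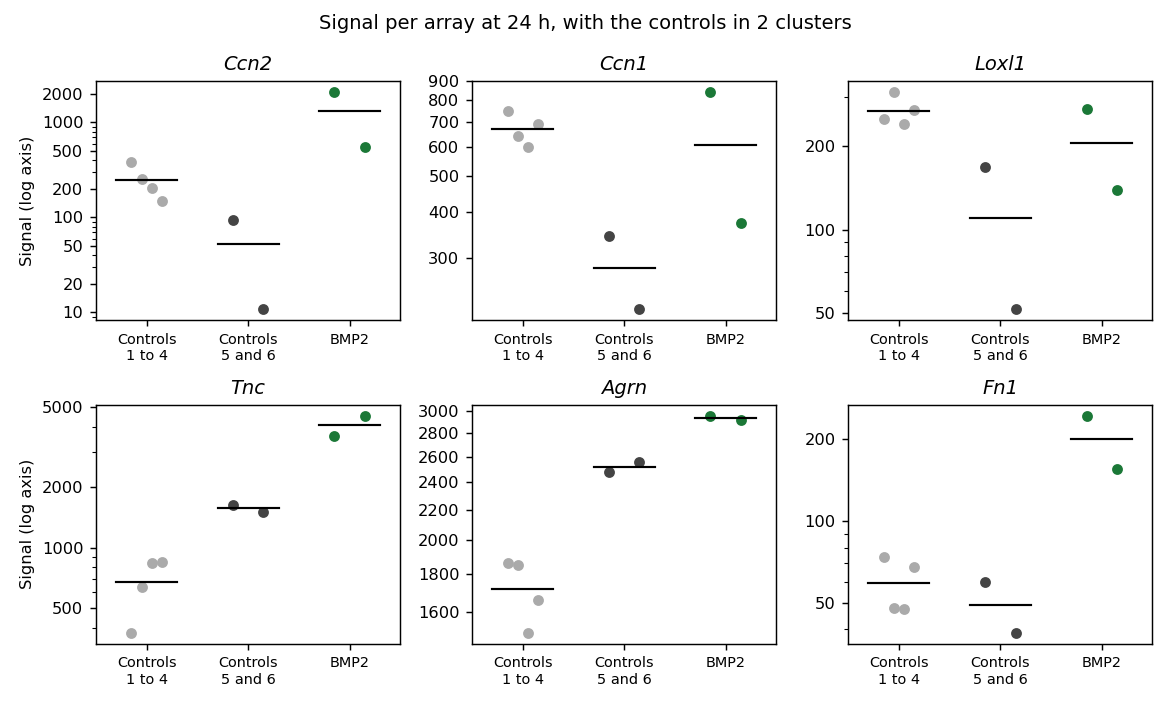
Signal (log axis) at 24 h of 6 members on controls 1 to 4 (light grey), controls 5 and 6 (dark grey) and the 2 BMP2 arrays (green), with black bars at means. Tnc and Agrn are higher and Ccn2, Ccn1 and Loxl1 lower in controls 5 and 6 than in controls 1 to 4, and Fn1 overlaps between them.

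Other matrix genes, from a list of 96 that are no members, were mixed in direction. Of 36 tested, TSA at 24 h upregulated 9 and downregulated 8, and BMP2 at 24 h upregulated 7 and downregulated 4, which is 47.2% and 30.6% of them called, beside 38.8% and 17.7% of all tested genes. The 3 that changed most with TSA were Tnr (tenascin-R, -3.27 ± 0.37), Vcan (versican, -2.30 ± 0.21), a chondroitin sulfate proteoglycan, and Ogn (osteoglycin, 2.26 ± 0.62), a small leucine-rich proteoglycan. With BMP2 they were Fmod (fibromodulin, 3.15 ± 0.30), also a small leucine-rich proteoglycan, Col5a3 (a chain of type V collagen, 2.65 ± 0.46) and Adamts4 (a protease that cuts proteoglycans, -2.17 ± 0.62). Of 20 tested genes of collagen folding, modification and export, TSA at 24 h upregulated 7 and downregulated 2, and BMP2 upregulated 6 and downregulated 0, which is 45% and 30% of them called. With TSA, P3h4 (1.49 ± 0.14), P3h2 (1.19 ± 0.16) and P4ha2 (1.02 ± 0.19) changed most, which belong to the prolyl hydroxylases and their partners. With BMP2 these were Colgalt2 (1.42 ± 0.19) and Plod2 (1.41 ± 0.23), which act on the lysines of collagen, and P3h2 (1.09 ± 0.21).

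Marker levels of other cell types moved with treatment. The summed signal of 8 mural markers at 24 h was 1125 to 1832 in controls, 2293 to 2508 with BMP2 and 1151 to 1930 with TSA, carried by Tagln (a mean of 117 in controls, 769 with BMP2), while Pdgfrb was lower with BMP2 (307 and 53.7). The sum of 10 endothelial markers was 310 to 385 in controls, 546 to 622 with BMP2 and 396 to 492 with TSA, with Kdr at 90.9, 280.1 and 133, while Pecam1 had group means of at most 16.7. The sum of 10 meningeal markers was 121 to 682 in controls, 206 to 266 with BMP2 and 573 to 1065 with TSA, carried by Islr and Igf2, while Lum had group means of at most 21.0. The sum over 8 oligodendrocyte lineage markers was 31720 to 40530 in controls, 14110 to 14470 with BMP2 and 17430 to 25760 with TSA. The sum of 9 neuronal markers was 5869 to 8232 in controls, 6631 to 7628 with BMP2 and 3569 to 4397 with TSA, where the TSA arrays lay below all controls. The sum of 9 astrocyte markers was 22490 to 32730 in controls, 18300 to 20510 with BMP2 and 25380 to 34230 with TSA, where the BMP2 arrays lay below all controls, and the sum of 6 progenitor markers overlapped between the 3 groups. Sums hide single genes. Of the 2 endothelial genes tested, TSA at 24 h upregulated 2 (Kdr, Egfl7) and BMP2 1 (Kdr). Of the 4 mural genes tested, BMP2 upregulated 1 (Tagln) and downregulated 1 (Pdgfrb), and TSA changed 0. Of the 2 meningeal genes tested, TSA upregulated 1 (Igf2) and BMP2 changed 0. Kdr and Igf2 were tested only through a treated group. Of the 6 progenitor genes, TSA upregulated 2 (Nes, Vim) and downregulated 2 (Pax6, Hes5), and BMP2 upregulated 1 (Pax6). Of the 9 astrocyte genes, TSA downregulated 2 (Aqp4, S100b) and BMP2 downregulated 5. Of the 9 neuronal genes, TSA downregulated 4 (Tubb3, Dcx, Map2, Elavl3) and upregulated 1 (Stmn2, tested only through a treated group). BMP2 upregulated 1 of them (Tubb3). Of the 8 oligodendrocyte lineage genes, TSA downregulated 5 and BMP2 6. Of all tested genes 38.8% were called with TSA and 17.7% with BMP2. Gfap, with means of 1683 in controls, 546 with BMP2 and 3973 with TSA, was not called. The part of these shifts in the matrix changes was not tested.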

How the data were processed

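RNA of plated neurosphere cells in 6 groups (control, BMP2 and TSA at 6 h and 24 h) was measured on 18 Affymetrix mouse arrays. The authors deposited intensity values, 1 linear signal for each probe set and array. The submitters' notes name MAS5 (version not given), whereas dChip and a quantile step are given in the paper's methods, so which software made the values is not settled. The number of arrays limits the precision.

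In R 4.3.3 with limma 3.58.1, 64 control probe sets were left out, the signals were quantile-normalized over all arrays and transformed as log2(signal + 32). A linear model of the 6 groups (lmFit, eBayes with trend) was fitted to the 19440 probe sets that reached a group mean of 100. Benjamini-Hochberg adjustment was made separately in every comparison, and adjusted p-values under 0.05 were called. Treatments were compared with controls and with each other at 6 h and at 24 h, effects were compared between times, and so were the controls. The array annotation paired 34958 probe sets with 1 gene and 932 with several, which were not named. The steps, standard errors included, were tested on simulated data. Arrays of a group correlated at 0.913 to 0.988, with at most 0.642% identical values.

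The members, gene lists, array clusters and tests were chosen with earlier results of these data known. Values per array are given for members called with a log2 fold change of at least 1 in size against controls, and the others by counts, ranges and examples. Of the other lists, the 3 called genes with the largest change at 24 h are named.

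Residuals of TSA and control arrays of 24 h that share a replicate number correlated at 0.28 to 0.57 over 4 pairs (3 of 4 highest at the own number), so the numbers were taken to pair these arrays, and a replicate block was an alternative. Further alternatives were normalization, pseudocount, filter, probe set summary, arrays in the fit, trend, the array clusters and each array left out. Another was the criteria of the study, which are a ratio over 2, a difference over 100 and a level of confidence. An unadjusted limma p under 0.1 stood in for that confidence, for which the paper's methods name no test. Protein sequences were not used here. RT-PCR and protein measurements were not analysed here.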

Additional observations from a re-analysis of the deposited data

Results flagged for a closer look

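Among 68 sets of arrays (34 members in the controls and in the TSA arrays of 24 h), 4 held 1 array that lay far from the others, and chance alone marks about 1 in 20. They were Col9a1 in control replicate 1 (290 against 559 to 732 on the other controls), Nid1 in TSA replicate 2 (427 against 833 to 934), Hspg2 in control replicate 6 (547 against 274 to 328) and Timp2 in control replicate 6 (969 against 1845 to 2304).

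The effect of TSA differed between 24 h and 6 h, by an interaction in limma at an adjusted p under 0.05, for 10 members. The log2 difference (24 h minus 6 h) was 0.95 for Col5a1, 1.40 for Col5a2, 1.19 for Col4a1, 1.36 for Col4a5, 2.40 for Nid1, 1.38 for Fn1, 2.01 for Fbln2, 2.26 for Loxl1, 2.13 for Mmp2 and 1.53 for Mmp14. Of these, Col5a1, Col4a1, Nid1, Fn1, Fbln2 and Mmp2 were tested only through a treated group, which favoured a positive difference.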

How the results depend on the processing

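Of the 30 log2 fold changes of named members, 19 kept their direction and their side of the threshold under every alternative in which they were tested. Members that missed the filter of an alternative, such as Col5a1 at a group mean of 200, were left out there and not counted as a loss. The changes under their alternatives made 681 estimates in all. Of these, 655 kept both, 26 lost the call and 0 changed direction. In counts of called members, the criteria of the study gave 16 for TSA at 24 h (25 in the main setting), 4 for BMP2 at 24 h (12), 12 for TSA against BMP2 at 24 h (20) and 1 for the controls of both times (0). A filter at a group mean of 200 left 15 for TSA at 24 h, with 24 members tested. Counting only members with a control mean of at least 100, an alternative chosen after seeing the data, gave 10 for TSA at 24 h, 3 for TSA at 6 h (5) and 1 for BMP2 at 6 h (2), with fewer members tested. Only the arrays of the groups compared gave 10 for TSA at 6 h and 15 for TSA against BMP2 at 6 h (9). The array cluster as a term gave 6 for BMP2 at 24 h, 10 for TSA against BMP2 at 24 h and 3 for the controls of both times. Controls 5 and 6 alone gave 7 for BMP2 at 24 h and 2 for the controls of both times, and controls 1 to 4 alone gave 4 for the change of the BMP2 effect between the times (0) and 2 for the controls of both times. Median scaling gave 1 for the controls of both times, as did averaging the probe sets of each gene. The cause of these shifts was not tested. With the replicate number as a block, the counts were 27 for TSA at 24 h, 11 for TSA at 6 h, 11 for the change of the BMP2 effect and 16 for that of the TSA effect (10). At 6 h equal numbers correlated at 0.57 to 0.71, but with 2 pairs a pairing is not established, and BMP2 arrays of 24 h gave -0.13 to 0 with the controls and -0.18 to -0.11 with TSA. The controls of both times cannot be compared under the block, which is nested in time. With 1 array left out, the ranges were 0 to 0 for BMP2 at 6 h, 5 (without BMP2 24 h replicate 1) to 14 for BMP2 at 24 h, 3 (without control 6 h replicate 1 or TSA 6 h replicate 2) to 4 for TSA at 6 h, 22 to 27 for TSA at 24 h, 4 (without BMP2 6 h replicate 1 or TSA 6 h replicate 1) to 7 for TSA against BMP2 at 6 h, 13 (without BMP2 24 h replicate 1) to 20 for TSA against BMP2 at 24 h, 0 to 0 for the change of the BMP2 effect, 1 (without TSA 6 h replicate 2) to 10 for the change of the TSA effect, and 0 to 2 for the controls of both times. Where 2 arrays make a group, the array left is assumed to vary like those of the other groups. Members near a signal of 100 lie close to the background of the arrays.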
